A study of Homo sapiens with 8 samples.

Results

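The nuclear genes of the mitochondrial respiratory chain and ATP synthase were followed in L1236, an established Hodgkin lymphoma cell line with high endogenous miR-155. Members were chosen by name only. A probe was taken if the RefSeq symbol of its accession began with NDUFA, NDUFB, NDUFC, NDUFS or NDUFV (complex I), SDHA to SDHD (complex II), UQCR (complex III), COX4 to COX8 followed by a letter (complex IV) or ATP5 (complex V). This gave 129 of the 41000 probes on the array, for 95 genes. After filtering, 125 of these probes remained, for 92 of the 11199 genes with a kept probe. Besides structural subunits, the name rule also takes assembly factors (NDUFAF and SDHAF genes) and pseudogenes of SDHA. Of the 3 genes lost, COX7A1 and COX7B2 were not well above background in any of the 8 channels, and COX4I2 did not pass the dye filter.

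Cells carried either the empty pMSCV-PIG vector (EV) or a sponge against miR-155, that is, a transcript with repeated miR-155 sites that draws the miRNA away from its natural targets. From each cell population the total RNA fraction (T) and the RNA precipitated with Argonaute 2, or Ago2 (IP), were obtained. Ago2 is the protein that holds a miRNA on its target transcript. Every RNA was hybridised in both dyes, Cy3 and Cy5, with IP and T of a cell population sharing an array, which took 4 two-color arrays for the 4 RNA samples. Each group thus holds 1 sample, and no test between groups was possible. Values are log2 ratios, and ± is the SD over the 2 dye orientations, or over the 2 dyes for a sponge minus EV difference. Where a pair of array values is given for a cell population, the array with IP in Cy5 comes first. This error covers labelling and hybridisation and leaves out the spread between cultures and between precipitations. In bulk RNA, fewer cells with a transcript and less of it per cell cannot be told apart.

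The share of spots well above background lay between 54.1% and 65.7% in the 8 channels, lowest in Cy5-labelled sponge T, and no spot was saturated. The 92 genes were all well above background in all 8 channels, and 77 of them (83.7%) lay in the brightest 25% of all genes in EV T. Of the markers of the labelled cell type, 8 of 8 Hodgkin genes were kept, TNFRSF8 (CD30) and CCL17 among them. The B-cell genes MS4A1 and CD22, the T-cell genes CD3D, CD3E and CD3G, and the epithelial genes EPCAM and KRT19 did not pass the filters.

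Complex I takes electrons from NADH, and complex II takes them from succinate as a step of the citric acid cycle. Both pass them by way of ubiquinone to complex III, cytochrome c carries them on to complex IV, and complex IV reduces oxygen. Complexes I, III and IV pump protons across the inner membrane, and complex V uses the gradient to make ATP. Complexes I, III, IV and V combine subunits encoded in the nucleus with others encoded in mitochondrial DNA, while complex II is wholly nuclear-encoded. Transcripts from mitochondrial DNA had no probe under the naming used and were not analysed here. Ago2 is loaded with miRNAs in the cytoplasm, where the nuclear transcripts are translated, so that an IP/T ratio above 1 marks transcripts over-represented among Ago2-bound RNA.

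The sponge was directed against miR-155, whose mature strands are shown with the seed (bases 2 to 8) in capitals. Both come from the RefSeq record of MIR155 in GRCh38.p14 and lie on the plus strand, at chr21:25573983-25574006 and chr21:25574022-25574043. Sites for them in the members' transcripts were not analysed here.
hsa-miR-155-5p: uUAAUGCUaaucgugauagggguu
hsa-miR-155-3p: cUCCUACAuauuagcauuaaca

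Some members carry short promoter sequences, not used by the name rule, that are known binding motifs of regulators of respiratory genes. In the 250 bases before the RefSeq start, available for 76 of the 92 genes, the NRF1 motif GCGCATGC was found on either strand for 13 genes (17.1%), against 2.81% of all 27305 promoters. The ETS motif CCGGAAGT, bound by the factor GABP among others, was found for 11 genes (14.5%), against 3.64% of all promoters. For the YY1 motif AAGATGG the share of 5.26% (4 genes) was near the 3.77% of all promoters. At least 1 of the 3 motifs was found for 24 of the 76 genes (31.6%), against 9.65% of all promoters, so most members had none. A promoter with a motif on both strands was counted once, and none of the 3 motifs contains another. Windows of 3 members are printed in gene orientation with the motif in capitals, to show 1 gene enriched in IP (SDHD), 1 depleted (NDUFA13) and 1 with a ratio near 1 (ATP5F1C). The SDHD window lies at chr11:112086748-112086817 (+), that of NDUFA13 at chr19:19516200-19516224 (+) and that of ATP5F1C at chr10:7788140-7788176 (+), all in GRCh38.p14. A match is only a run of letters and does not show binding.
SDHD: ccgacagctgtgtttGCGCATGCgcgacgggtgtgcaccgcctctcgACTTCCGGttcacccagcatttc
NDUFA13: cacttccgcccgggaCCGGAAGTgt
ATP5F1C: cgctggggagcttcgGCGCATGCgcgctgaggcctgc

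To determine how the respiratory chain genes were distributed between T and the Ago2-IP fraction, IP/T ratios were compared in EV cells. The median log2 IP/T of the 92 genes was -0.40 ± 0.17, against -0.16 for all genes and -0.33 for all genes in the brightest 25% of EV T. With IP in Cy5 the members had -0.49 and the brightest 25% had -0.36, but with IP in Cy3 the order turned, with -0.26 and -0.28, so the sign of the difference from other bright genes depended on the dye orientation. The genes ranged from -2.92 (COX6A2) to 2.17 (NDUFAF6), a far wider range than the median SD over orientations of 0.11. At least 2-fold enrichment in IP was found for 10 genes (10.9%), against 18.1% of all genes. A T/IP of at least 2 was found for 19 genes (20.7%), against 18.8% of all genes. The share of depleted genes was thus near the background and the share of enriched genes lay below it. Among all genes in the brightest 25% of EV T, 13.3% were enriched and 23.2% depleted. The members' share of enriched genes lay nearer to that of these bright genes. In all 4 arrays, 25 genes (27.2%, background 36.2%) had a ratio above 1 and 50 (54.3%, background 45.6%) a ratio below 1. In sponge cells the median was -0.26 ± 0.12 (all genes -0.14, brightest 25% of EV T -0.25). There 8 genes reached an IP/T of 2 (8.70%, background 17.7%) and 14 genes a T/IP of at least 2 (15.2%, background 17.4%). For the brightest 25% these shares were 12.8% and 20.0%. Of other abundant housekeeping complexes, the median in EV cells was -0.61 ± 0.11 for 76 mitochondrial ribosomal genes, -0.55 ± 0.06 for 84 cytosolic ribosomal genes and -0.43 ± 0.13 for 47 proteasome genes. The proteasome and the respiratory chain differed by less than the SD of either. Of these 3 lists, 5, 7 and 1 genes were enriched at least 2-fold, and 26, 21 and 12 genes were depleted at least 2-fold.

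**Figure D1:**
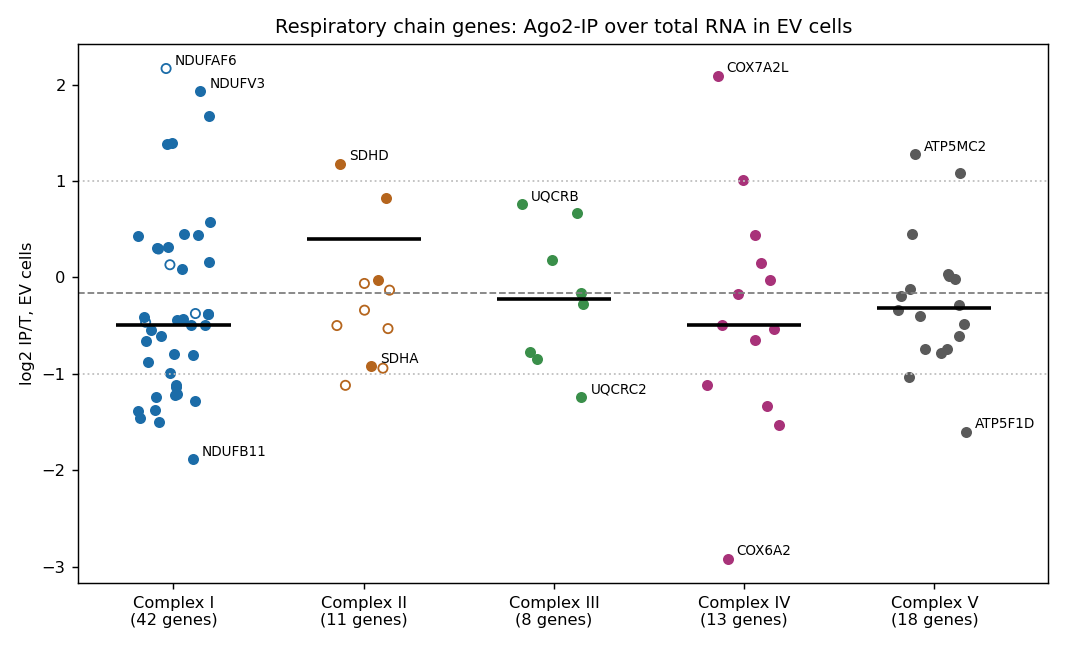
log2 IP/T in EV cells (y axis) of the 92 genes by complex (x axis). Filled points are structural subunits, open points assembly factors and pseudogenes, black bars the subunit medians, the dashed line the median of all genes (-0.16) and dotted lines 2-fold. Complex II subunits have the only median above 1 in ratio, and COX6A2 lies lowest of all genes shown.

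By complex, the subunits of complex I had a median log2 IP/T of -0.49 ± 0.13 (37 genes), complex II 0.40 ± 0.09 (4 genes), complex III -0.22 ± 0.13 (8 genes), complex IV -0.49 ± 0.01 (13 genes) and complex V -0.31 ± 0.23 (18 genes). Complex II, with only 4 genes, was the one complex with a positive median. The medians of complexes III and V differed by less than the SD of either. For complex IV the small SD of the median understates the error, since the alternative settings gave medians between -0.50 and -0.27.

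In complex I, the 7 nuclear core subunits, which hold the flavin, the iron-sulfur clusters and the ubiquinone site, had a median of -0.99 ± 0.06, and 6 of the 7 had a ratio below 1 in both EV arrays. The exception was NDUFV2, an iron-sulfur subunit, at 0.45 ± 0.11. Its partner NDUFV1, which binds the flavin and is the entry point for electrons from NADH, had -1.44 and -1.47 in the EV arrays and -1.37 and -1.25 in the sponge arrays. It was therefore depleted more than 2-fold in every array. NDUFS3, NDUFS7 and NDUFS8 had values of -1.28 ± 0.02, -1.14 ± 0.35 and -0.99 ± 0.01, while NDUFS1, the largest subunit, had -0.41 ± 0.10. A second, dimmer NDUFS1 probe gave -0.76 ± 0.06. NDUFS7 was also read by a second probe at -1.84, so its depletion does not rest on 1 probe.

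The 30 accessory subunits of complex I, which surround the core and are needed for its assembly and stability, spread from -1.88 to 1.93. At the enriched end, NDUFV3, a small subunit next to NDUFV1 and NDUFV2, had 2.03 and 1.83 in the EV arrays and 1.85 and 1.59 in the sponge arrays. NDUFC1, of the membrane arm, had 1.57 and 1.77 in EV and 1.72 and 1.54 in sponge cells. NDUFB3, also of the membrane arm, had 1.36 and 1.43 in EV and 1.32 and 1.31 in sponge cells. All of these log2 values were above 1, that is more than 2-fold enrichment, as were those of NDUFA5, a subunit of the arm that reaches into the matrix (1.45 and 1.32 in EV, 1.36 and 1.69 in sponge cells). At the depleted end stood NDUFB11, a subunit of the membrane arm encoded on the X chromosome, with -1.94 and -1.83 in EV and -1.86 and -1.81 in sponge cells. NDUFA13, also known as GRIM-19, had -1.57 and -1.43 in EV and -1.45 and -1.48 in sponge cells. NDUFS6, NDUFB10, NDUFB8 and NDUFB7 followed with -1.38 ± 0.10, -1.38 ± 0.02, -1.24 ± 0.01 and -1.21 ± 0.11 in EV cells. For these 6 genes and NDUFV1, T/IP was at least 2 in all 4 arrays, between 2.31 and 3.69 when averaged over the EV arrays.

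Of the 5 complex I assembly factors taken by the rule, NDUFAF6 was the most enriched gene of the chain. Its values were 1.90 and 2.43 in the EV arrays and 1.97 and 2.31 in the sponge arrays, a 4.49-fold enrichment in EV cells. The other assembly factors lay between -0.46 (NDUFAF5) and 0.30 (NDUFAF2). The high ratio was thus a property of NDUFAF6 and not of the group.

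In complex II, the subunits differed from each other, and a link to their place in the enzyme was not tested. SDHD and SDHC, which anchor the enzyme in the membrane, had 1.18 ± 0.03 and 0.82 ± 0.21 in EV cells. SDHB, the iron-sulfur subunit, had -0.02 ± 0.03, and SDHA, the flavoprotein that oxidises succinate, had -0.92 ± 0.17. SDHD exceeded SDHA by 1.73 to 2.24 in each of the 4 arrays. The 4 probes of SDHD had 0.96 to 1.18, and the 2 probes of SDHA had -0.94 and -0.92, so that the probes of a gene lay close together. Of the assembly factors, SDHAF1 had -1.12 ± 0.16 and the other 3 lay between -0.34 and -0.06. The probes matched to the pseudogenes SDHAP1, SDHAP3 and SDHAP4 had -0.94 ± 0.17, -0.50 ± 0.06 and -0.53 ± 0.13. These pseudogenes are near copies of SDHA, so signal from SDHA transcripts on their probes cannot be told apart.

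In complex III, UQCRB, known as the ubiquinone-binding protein, had 0.76 ± 0.22 and UQCR10 had 0.66 ± 0.10, although a second UQCR10 probe gave -0.0017. At the other end, the core protein UQCRC2 had -1.18 and -1.31 in EV and -1.05 and -1.10 in sponge cells. Read from the brightest probe of each gene, UQCRC2 was the only complex III gene under the name rule depleted 2-fold in all 4 arrays. Its partner UQCRC1 had -0.16 ± 0.03. The iron-sulfur protein UQCRFS1 had -0.49 where IP was in Cy5 and -0.06 where it was in Cy3. UQCRQ had -0.84 ± 0.11. UQCR11 had the widest error of all members, -0.78 ± 0.64. A second, dimmer UQCR11 probe was also depleted 2-fold in all 4 arrays, with -1.58 and -1.36 in EV and -1.11 and -1.34 in sponge cells. The cytochrome c1 gene CYC1, outside the name rule but part of the same complex, was also depleted 2-fold in all 4 arrays. CYC1 had -1.40 and -1.39 in EV and -1.17 and -1.25 in sponge cells. CYCS, the electron carrier cytochrome c, had 0.47 in EV cells.

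Complex IV held both the second most enriched gene and the most depleted gene of the chain. COX7A2L, a relative of the subunit VIIa that takes part in joining complexes III and IV into supercomplexes, had log2 signals of 15.35 in EV T, 17.44 in EV IP, 15.25 in sponge T and 17.18 in sponge IP. Its IP/T was 2.12 and 2.07 in the EV arrays and 1.93 and 1.92 in the sponge arrays, and a second probe gave 1.46 ± 0.08 in EV cells. COX7B, a small transmembrane subunit, had 1.01 ± 0.19 in EV and 0.75 ± 0.24 in sponge cells. COX6A2, the isoform of subunit VIa known from heart and skeletal muscle, had -2.77 and -3.07 in EV and -2.94 and -3.44 in sponge cells. T exceeded IP by 7.56-fold in EV and 9.12-fold in sponge cells for this gene, read by 1 probe. COX7A2 had -1.92 and -1.13 in EV and -1.60 and -1.09 in sponge cells, with less depletion in both arrays that carried IP in Cy3. COX6C had -1.33 ± 0.04, and COX4I1, the ubiquitous isoform of subunit IV, had -1.11 ± 0.09.

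Related genes were compared array by array. COX6A1, the isoform of most tissues, had -0.03 ± 0.11 and exceeded COX6A2 by 2.67 to 3.59 in each array. COX7A2L, a relative of COX7A2 and not an isoform of it, exceeded it by 3.01 to 4.04. For COX6B1 (-0.49 ± 0.21) and COX6B2 (-0.65 ± 0.55) the difference had no fixed sign, between -0.42 and 0.70. NDUFA4, a component of complex IV that RefSeq now lists as COXFA4 and that the name rule therefore missed, had 0.65, and its relative NDUFA4L2 (COXFA4L2) had -1.51.

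In complex V, the 3 genes for the c ring (the rotor in the membrane) encode the same mature protein and differ in their import sequence. ATP5MC2 had 1.26 and 1.30 in the EV arrays and 1.13 and 1.01 in the sponge arrays, ATP5MC1 had -0.77 and -0.71 in EV and -0.85 and -0.58 in sponge cells, and ATP5MC3 had -0.0060 and -0.034 in EV and 0.40 and 0.26 in sponge cells. ATP5MC2 was thus enriched in every array and exceeded ATP5MC1 by 1.59 to 2.03. The value of ATP5MC3 depended on the probe. A second, dim probe, well above background in 7 of 8 channels, gave 1.51 ± 0.26 in EV cells. The 5 genes of the catalytic F1 part had a median of -0.61 ± 0.04, from -1.60 ± 0.23 for ATP5F1D (subunit delta of the central stalk) to 0.04 ± 0.23 for ATP5F1C (subunit gamma). Of the membrane subunits, ATP5MF had 1.08 ± 0.10 and ATP5MK had -1.03 ± 0.54, with -1.41 where IP was in Cy5 and -0.65 where it was in Cy3. The peripheral stalk subunits lay between -0.74 and 0.011, and the inhibitor gene ATP5IF1 had -0.48 ± 0.32.

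**Figure D2:**
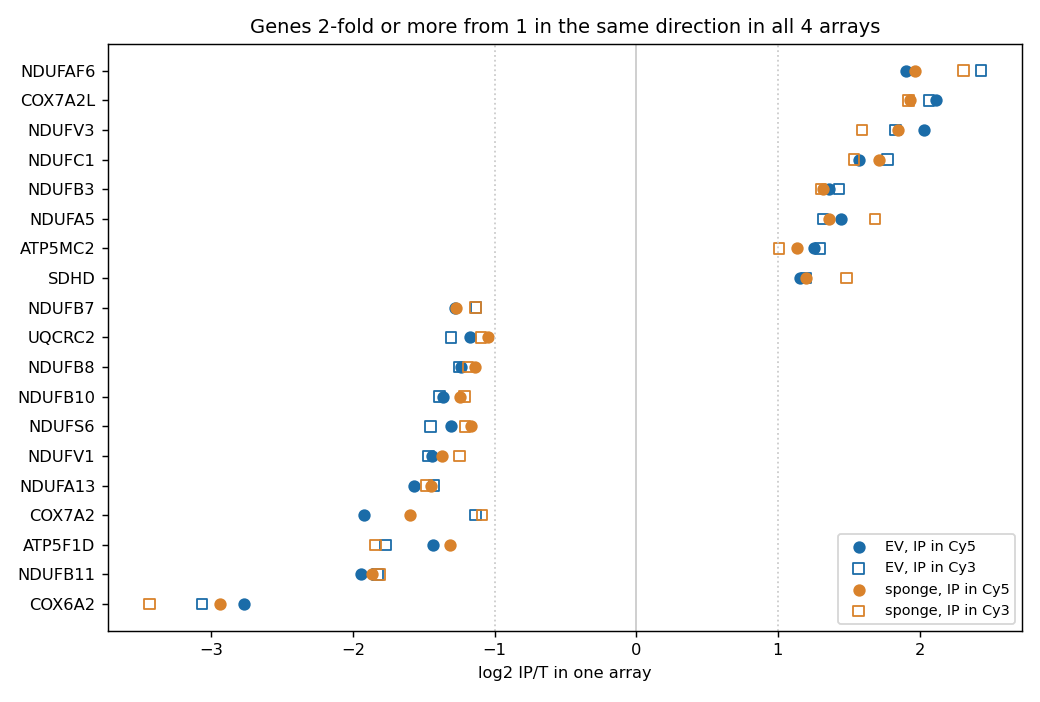
log2 IP/T in each of the 4 arrays (x axis) for the 19 genes (y axis) that were 2-fold or more from 1 in the same direction in all 4. Blue, EV cells; orange, sponge cells; filled circles, IP in Cy5; open squares, IP in Cy3. The 8 enriched genes lie between 1.01 (ATP5MC2) and 2.43 (NDUFAF6), and COX6A2 reaches -3.44.

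In total 8 genes (8.70%, against 13.9% of all genes) were enriched and 11 (12.0%, against 11.1%) depleted 2-fold or more in all 4 arrays, so the share of depleted genes was near the background. The 8 enriched genes were NDUFAF6, COX7A2L, NDUFV3, NDUFC1, NDUFB3, NDUFA5, ATP5MC2 and SDHD, with 5 of them in complex I, which holds 42 of the 92 genes. Of the 11 depleted genes, 7 belonged to complex I, 2 to complex IV (COX6A2 and COX7A2), 1 to complex III (UQCRC2) and 1 to complex V (ATP5F1D). Of 29 members with 2 or more kept probes, 2 (ATP5MC3 and NDUFV3) had probes more than 1 apart in log2 IP/T. For NDUFV3 the dimmer of its 3 probes gave 0.83 ± 0.34. Longer genes tended slightly to higher ratios, with a Spearman correlation of 0.24 between genomic length and log2 IP/T in EV cells over the 92 genes and 0.18 over all genes. Genes share probe design and base composition, and this value is a description across genes.

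The other genes needed to build and supply the chain were read from lists of general knowledge. Of 37 further assembly factors, 8 were enriched (21.6%) and 5 depleted (13.5%) at least 2-fold in EV cells, with a median of -0.19 ± 0.13. Of all genes, 18.1% were enriched and 18.8% depleted, so the share of enriched assembly factors was near the background. The 8 enriched genes were COX14 (1.97), OXA1L (1.72), COA5 (1.61), COX20 (1.55), COX17 (1.47), COX10 (1.15), COX11 (1.09) and COA1 (1.09). The 5 depleted genes were ECSIT (-2.10), an assembly factor of complex I, COA3 (-1.79), BCS1L (-1.60), which inserts the iron-sulfur protein into complex III, ATPAF2 (-1.03), a chaperone of F1, and SCO2 (-1.01), which delivers copper to complex IV. Among 11 regulators of mitochondrial biogenesis the nuclear receptor ESRRA had 2.03 and the mitochondrial RNA polymerase POLRMT had -1.24. Of 12 citric acid cycle genes, 0 were enriched and 4 depleted at least 2-fold, IDH3B, IDH3G and OGDH among them, and the median was -0.57 ± 0.15.

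To ask whether the distribution differed in cells carrying the sponge, IP/T was compared between sponge and EV cells. The ratios of the 2 cell populations lay close together, with a Pearson correlation of 0.982 across the 92 genes. Of the genes with a 2-fold ratio in EV cells, 8 of 10 enriched and 13 of 19 depleted genes also had one in sponge cells (80.0% and 68.4%). Of all genes with a 2-fold ratio in EV cells, 90.6% of the enriched and 81.5% of the depleted ones did. The enriched genes that passed in EV cells only were ATP5MF and COX7B, and the depleted ones were ATP5MK, COX6C, NDUFA9, NDUFC2, NDUFS3 and SDHAF1. In sponge cells only, NDUFS8 passed as depleted. Their log2 ratios lay between 0.75 and 1.08 for the enriched and between -1.33 (COX6C in EV cells) and -0.74 (ATP5MK in sponge cells) for the depleted genes. No member differed 2-fold or more between the cell populations in T, in IP or in IP/T.

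**Figure D3:**
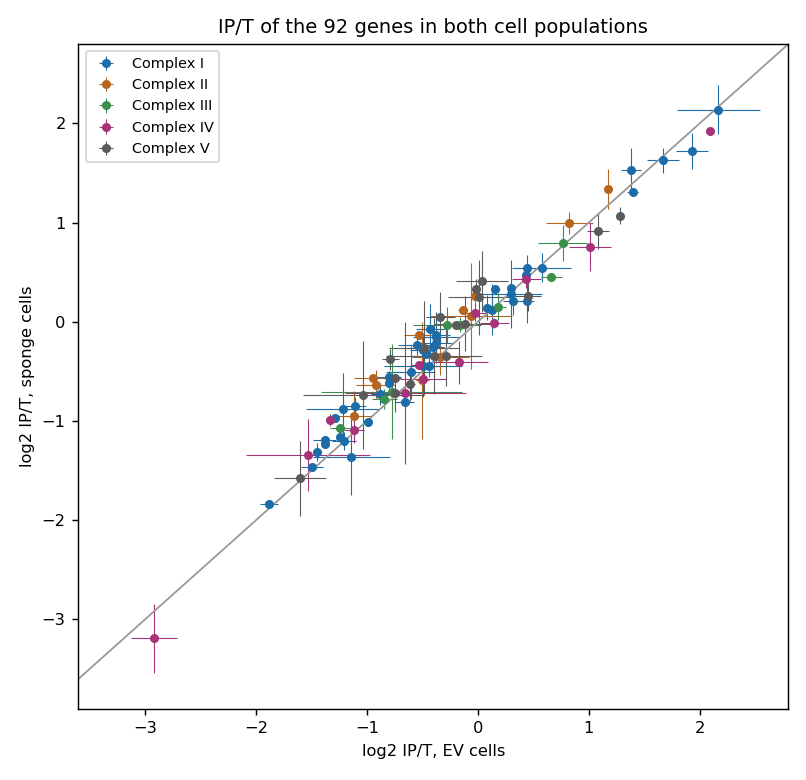
log2 IP/T in EV cells (x axis) and sponge cells (y axis) of the 92 genes, colored by complex, with bars for the SD over the 2 dye orientations and a line of equality. The points follow the line from COX6A2 at -2.92 and -3.19 to NDUFAF6 at 2.17 and 2.14.

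In T, the members differed little between the cell populations. The median log2 sponge minus EV was 0.011 ± 0.027 (all genes -0.010). With both dyes, 34 genes were higher (37.0%, background 29.3%) and 25 lower (27.2%, background 31.9%) in sponge cells. At 2-fold, 0 members were higher (background 0.143%) and 0 lower (background 0.17%). Among the lowest values of genes with the same sign in both dyes were those of ATP5F1A (-0.30 ± 0.18), the alpha subunit of F1, ATP5F1C (-0.25 ± 0.10) and SDHD (-0.22 ± 0.14). The highest were NDUFS7 (0.26 ± 0.21), UQCRQ (0.24 ± 0.12), NDUFV3 (0.21 ± 0.05) and COX8A (0.20 ± 0.02). The value of NDUFV3 became -0.035 when its 3 probes were averaged. No member differed by more than 1.25-fold in T (COX6B2, 0.32 ± 0.51).

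In IP, values in sponge cells were mostly above those in EV cells. The median difference was 0.097 ± 0.016, against 0.0030 for all genes and 0.035 ± 0.0090 for all genes in the brightest 25% of EV T. With both dyes, 57 of the 92 genes were higher (62.0%, background 37.5%) and 16 lower (17.4%, background 36.4%). At 2-fold, 0 members were higher (background 0.0893%) and 0 lower (background 0.0625%). SDHA was highest, with differences of 0.37 in both dyes, a 1.29-fold value. NDUFB1, a small accessory subunit of complex I, had 0.36 ± 0.07, ATP5MK 0.33 ± 0.06 and COX6C 0.33 ± 0.04. The lowest values were those of COX7A2L (-0.26 ± 0.03), COX7B (-0.22 ± 0.04), ATP5MC1 (-0.19 ± 0.0008) and COX6A2 (-0.18 ± 0.14). The value of COX7A2L depended on the probe, since its second probe had no fixed sign in IP (0.045 in Cy3 and -0.09 in Cy5). Among the complexes, 26 of 37 complex I subunits were higher and 3 lower with both dyes, 7 and 4 of 13 in complex IV, and 11 and 4 of 18 in complex V. Proteasome and mitochondrial ribosomal genes showed the same direction, with 72.3% and 60.5% higher in sponge IP with both dyes. Of all genes in the brightest 25% of EV T, 48.5% were higher. For cytosolic ribosomal genes the share of 41.7% was near the background, and their median difference was 0.018 ± 0.028. The part of signal strength in the members' difference was not tested.

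**Figure D4:**
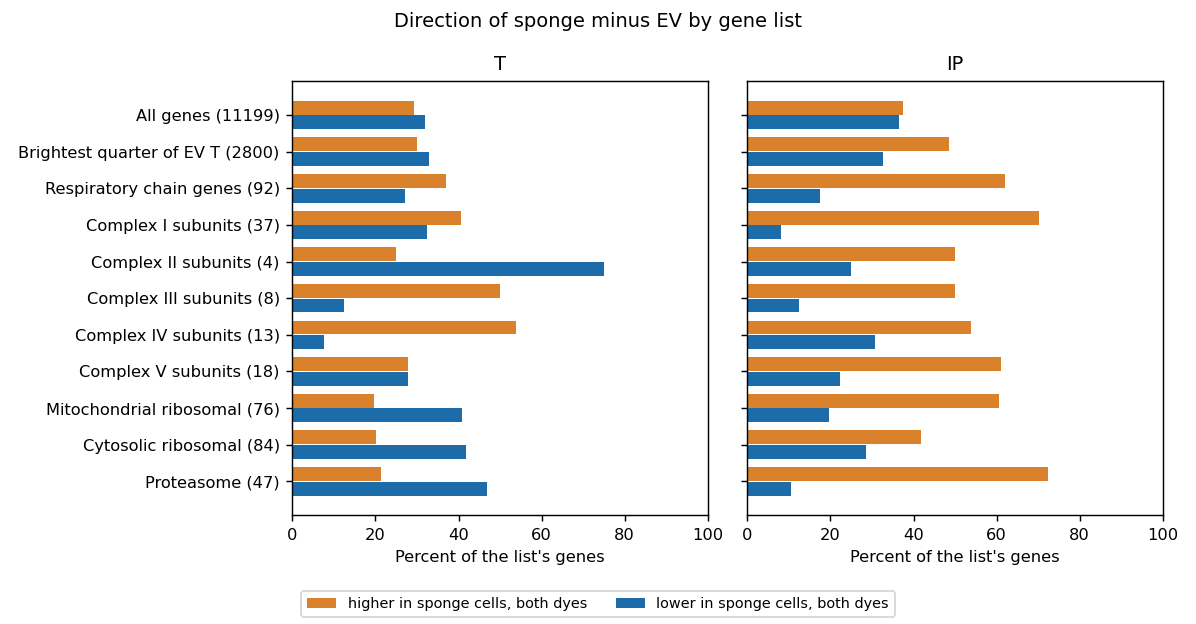
Percent of each list's genes (x axis; number of genes in parentheses) that were higher (orange) or lower (blue) in sponge than in EV cells with both dyes, in T (left) and in IP (right). In IP, 62.0% of the respiratory chain genes were higher, against 37.5% of all genes.

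The IP/T ratio accordingly had a median log2 change of 0.094 ± 0.0015 from EV to sponge cells (all genes 0.0086, brightest 25% 0.042 ± 0.021). The small SD of the members' median understates the error, since the alternative settings gave medians between 0.032 and 0.14. In both orientations IP/T was higher for 53 genes (57.6%, background 33.6%) and lower for 17 (18.5%, background 29.8%). For 18 genes (19.6%, background 8.71%), T was lower and IP higher in sponge cells with both dyes, and for 4 (4.35%, background 5.68%) the reverse held (ATP5MC2, ATP5ME, COX5B and NDUFA3). A second ATP5ME probe had a higher IP in sponge cells with both dyes (0.26 and 0.48). The 18 genes included the alpha, beta and gamma subunits of F1. ATP5F1B, the catalytic beta subunit, had -0.19 ± 0.06 in T and 0.20 ± 0.05 in IP. For ATP5F1A the change in IP/T was 0.41 ± 0.18, for ATP5F1B 0.39 ± 0.12 and for ATP5F1C 0.37 ± 0.07. The other F1 genes, ATP5F1D and ATP5F1E, had changes of 0.024 ± 0.14 and -0.022. Read from their brightest probes, all 4 complex II subunits had a higher IP/T in sponge cells in both orientations, with a median change of 0.23 ± 0.09. Another SDHD probe had no fixed sign in this change (-0.0017 and 0.066). In complex IV the genes were divided, 4 higher and 5 lower, with a median of -0.064 ± 0.11. T and IP of a cell population were read from opposite channels of the same arrays, so the difference in T, the difference in IP and the change in IP/T are not independent.

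**Figure D5:**
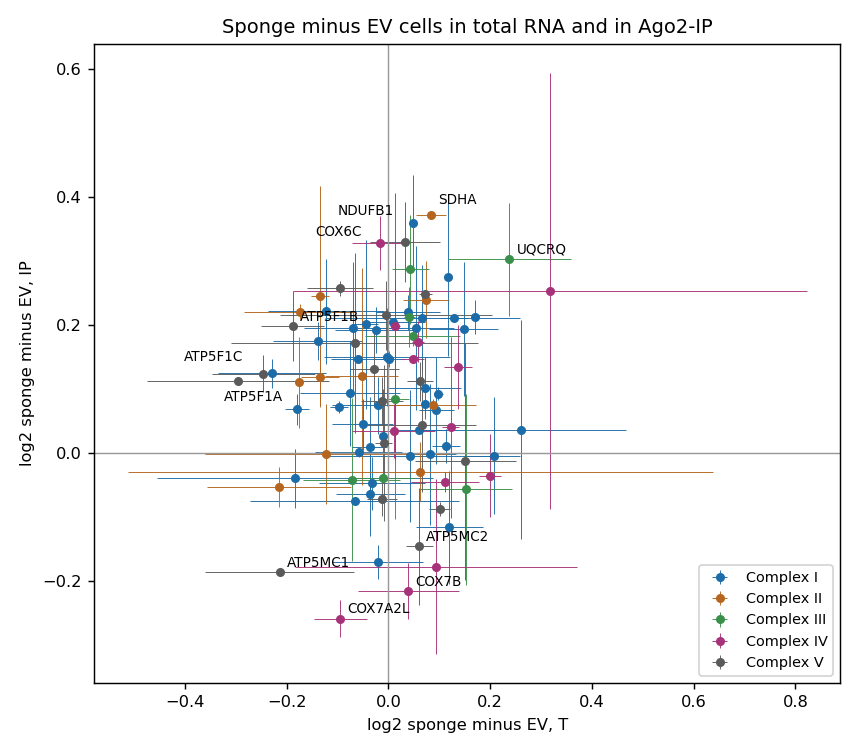
log2 sponge minus EV in T (x axis) and in IP (y axis) of the 92 genes, colored by complex, with bars for the SD over the 2 dyes. Most points lie above 0 on the y axis and on either side of 0 on the x axis, with SDHA highest in IP (0.37) and ATP5F1A lowest in T (-0.30).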

How the data were processed

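Ago2-IP and total RNA of EV and sponge L1236 cells were hybridised to 44k Agilent two-color arrays. Per the file headers and labels, spot intensity values were extracted by the authors with Agilent Feature Extraction (version 10.5.1.1 in the labels, 10.7.3.1 in the headers). The 8 files are 4 distinct arrays, each deposited under both of its labelled samples. Log2 values normalised by the authors, deposited for 22282 probes, served as an alternative.

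Here each sample was read from the processed intensity of its own dye. Control and outlier-flagged spots were removed, spots of a probe were averaged, and log2 values were quantile normalised over the 8 channels (R 4.3.3, limma 3.58.1, Python 3.11.15). Probes were kept if well above background in at least 4 of 8 channels and if Cy3 and Cy5 agreed within 2-fold in each RNA sample (22466 of 41000). Cy3 and Cy5 were averaged. Accessions were named through RefSeq (GRCh38.p14), which gave 15622 kept probes a symbol, for 11199 genes. A gene was read from its kept probe of highest mean signal, and levels were not compared between probes. The array annotation follows hg18, and no array coordinate is printed. Calls were made at 2-fold. The steps were tested on simulated data.

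The members and lists were chosen with earlier results of these data known. Genes named in the text were, by rule, the 2 highest and 2 lowest IP/T values per complex in EV cells, up to 8 genes per direction that were 2-fold in all 4 arrays, the 4 highest and 4 lowest sponge minus EV values in T and in IP with the same sign in both dyes, isoform sets, and genes with discordant probes. Others were named after their values were seen, by role in the complex. Some genes that the rule names are not reported here. With 1 sample a group no p-value is given, and precision is limited by the number of arrays. Alternatives changed the background correction, scaling, filters, labellings, choice of probe and member definition.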

Additional observations from a re-analysis of the deposited data

Results flagged for a closer look

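For 3 genes log2 IP/T was below 0 in both EV arrays and above 0 in both sponge arrays, and the difference was not tested. The changes were 0.35 for ATP5MC3, 0.25 for SDHAF2 and 0.29 for SDHB, all from EV values close to 0 (-0.02, -0.13 and -0.02).

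Among the genes named by rule and reported here, sponge minus EV had opposite signs in T and in IP, with both dyes, for 6 genes. This was not tested either. The IP minus T difference was 0.41 for ATP5F1A, 0.37 for ATP5F1C, 0.35 for ATP5MC3, 0.38 for SDHAP1 and 0.39 for SDHAP4, with T lower and IP higher in sponge cells. It was -0.21 for ATP5MC2, with T higher and IP lower. ATP5F1A, ATP5F1C and ATP5MC2 were read by only 1 probe each. For SDHAP4, ATP5MC3 and SDHAP1 a second probe did not show the opposite signs. A second SDHAP4 probe had T higher in sponge cells with both dyes (0.31 and 0.10) and a change in IP/T of -0.15, and a second ATP5MC3 probe had IP lower with both dyes (-0.19 and -0.21). A second SDHAP1 probe had no fixed sign in T (-0.18 and 0.066). The IP value of SDHAP4 was 0.22 ± 0.01 and turned to -0.010 and -0.0074 under the normexp settings.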

How the results depend on the processing

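Of 15 alternatives planned, 14 were run. Naming probes also from a gene name column was not run, because the scanner files used here have no such column, and normexp used the median in place of the mean signals. The median IP/T in EV cells (-0.49 to -0.26) and in sponge cells (-0.31 to -0.15) stayed negative under all 14, and the 4 counts of genes with 2-fold ratios stayed within 1.5 times. Normexp, loess and Aquantile moved the median of all genes in EV cells from -0.16 to -0.0059, and the members then lay 0.27 below it, against 0.24 before. The gap between the medians of members and of all genes was -0.12 (EV) and -0.052 (sponge) with IP in Cy3, and -0.32 and -0.16 with IP in Cy5. The median difference in IP was 0.065 with normexp, loess and Aquantile. The median difference in T was 0.061 after scaling to the 75th percentile. The median change in IP/T was 0.032 with normexp, loess and Aquantile, 0.087 with normexp and quantile, 0.060 with scaling to the 75th percentile, 0.091 with the authors' values, 0.038 from the Cy3 labels, 0.14 from the Cy5 labels and 0.088 for structural subunits only, each further from 0.094 than the SD of 0.0015. That SD comes from 2 nearly equal orientation medians and understates the error. Among single genes, NDUFV3 in T became -0.035 with its probes averaged. SDHAP4 in IP became -0.010 with normexp, loess and Aquantile and -0.0074 with normexp and quantile. Of 2324 values of single genes under the alternatives, 2083 moved by less than their SD and 238 by more. The other 3 changed sign, which was counted only for 2-fold IP/T ratios and for the larger sponge minus EV differences with both dyes. Smaller values that changed sign stand among the 2083 or the 238. One of them was the IP/T of ATP5F1C in EV cells, below 0 under 2 alternatives and above 0 under 12. The count of 2083 is no measure of robustness. For the same probe, a value from 1 orientation always lies closer to the mean of both than their SD. A changed filter leaves a value as it was wherever the gene keeps its probe. No paired analysis was possible because each group holds 1 sample. The causes were not tested. All members were well above background in all 8 channels, and the part of signal strength in their values was not tested. With 1 sample a group, the spread between cultures and between precipitations was not measured.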
